A study of Mus musculus with 6 samples.

Results

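The transcripts of 9 genes that the ERK kinases induce, and that report on or restrain ERK signalling, were followed in J774 macrophages with and without NCOA4 siRNA. They were the phosphatases Dusp4, Dusp5 and Dusp6, the Sprouty and Spred inhibitors Spry2 and Spred1, and the output genes Etv5, Egr1, Ier3 and Phlda1. The 9 genes were chosen by name, with their values in this contrast already known, so their differences between the groups are given as a description and without a test. They are 9 of the 55487 gene identifiers in the data, and all 9 were among the 13829 genes with a mean of at least 0.5 TPM (a transcript count per gene length, scaled to the same total in each library). J774 cells are an established line of mouse macrophages, and NCOA4 is the receptor that carries ferritin, the iron storage protein, to the lysosome for breakdown. Cells received either a control siRNA (siControl) or an siRNA against NCOA4 (siNCOA4) in liposomes, with 3 biological replicates of each, and the labels name no other treatment. A single siRNA was used against NCOA4, so loss of the transcript and other effects of that siRNA cannot be told apart. The time from transfection to RNA isolation was not given in the sources used here.

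Growth factors and colony-stimulating factors activate RAS at the membrane, and RAS switches on the kinases RAF, MEK and ERK in turn. Active ERK phosphorylates ETS-family factors that work with serum response factor, and these induce immediate-early genes within minutes, and with them the genes that end the signal. DUSP phosphatases remove the activating phosphates from ERK, and Sprouty and Spred proteins act upstream by limiting RAS and RAF. In macrophages the cascade is a main route by which the receptor of macrophage colony-stimulating factor, Csf1r, drives growth and survival. Transcript levels were measured here, and neither the proteins nor the phosphorylation of ERK were.

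The libraries held between 15502131 and 18282107 reads on genes, as rebuilt from TPM and gene length. Ncoa4 itself was at 19.7, 22.5 and 22.4 TPM in the siControl libraries and at 9.63, 8.60 and 8.88 TPM in the siNCOA4 libraries, which is 41.9% of control (log2 fold change -1.21, SE 0.0767, adjusted p = 0.00127, limma with Benjamini-Hochberg adjustment). All 13 macrophage markers examined averaged at least 10 TPM, and 15 of 27 markers of other cell types were at 0 in every library. Library siControl 1 stood apart from its group. The mean chi-square per gene between replicates was 11.6 and 11.7 for the pairs that include siControl 1, 3.60 for the other siControl pair, and between 1.96 and 2.35 for the siNCOA4 pairs. The values without siControl 1 are given where they matter.

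The members spanned a wide range of levels. Ier3, an immediate-early gene whose product is an ERK substrate, was the highest, with a mean of 484 TPM over the 6 libraries, and exceeded 98.1% of the tested genes. Dusp6 followed at 218 TPM, then Spred1 at 128, Etv5 at 114, Dusp4 at 73.5, Spry2 at 43.2, Dusp5 at 33.0 and Egr1 at 14.7 TPM. Phlda1 was the lowest at 6.43 TPM, at the level percentile of 31.0 among tested genes. Each gene in this order lay above its neighbour in 6 of 6 libraries. The order was set by the means of the same libraries, so this is a description with no test. The closest neighbours were Spred1 and Etv5, with a ratio of levels between 1.02 and 1.28 across libraries, and the next closest were Spry2 and Dusp5, with a ratio between 1.09 and 1.49.

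**Figure D1:**
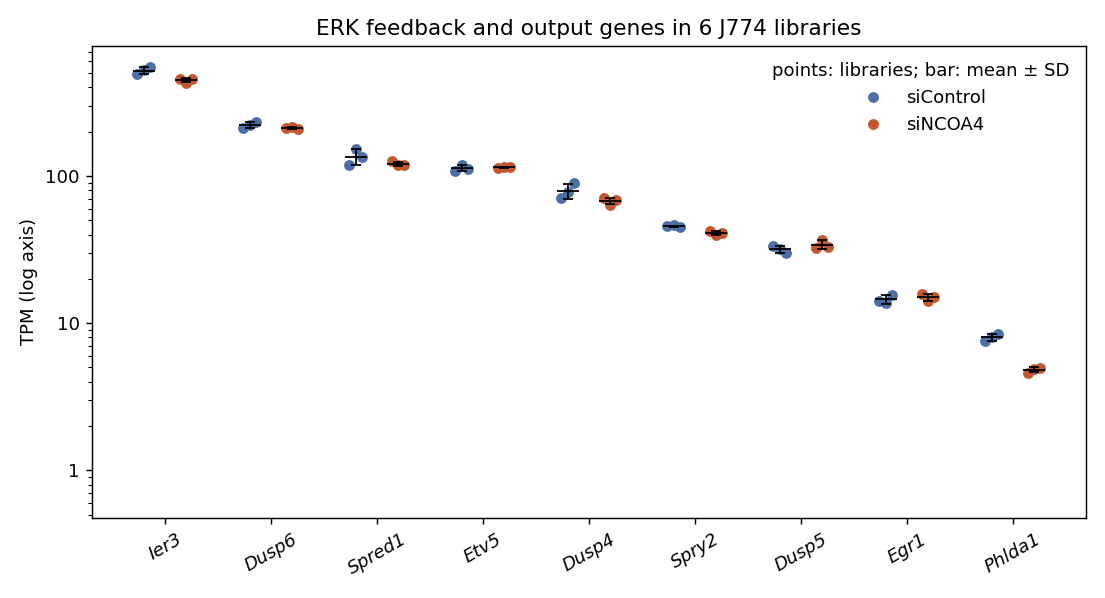
TPM of the 9 members on a log axis, with 1 point per library and bars for the mean and SD of the 3 libraries of each group. The groups stand clearly apart for Phlda1, at 7.58 to 8.44 TPM in siControl and 4.61 to 4.96 TPM in siNCOA4, while the points of most other members lie close together.

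Among the phosphatases, Dusp4 and Dusp6 averaged lower with NCOA4 siRNA and Dusp5 averaged higher, and the groups overlapped for all of them. Dusp4 is an inducible nuclear phosphatase (ENSMUSG00000031530, GRCm38 chr8:34807297-34819894, plus strand, 4 exons). It was at 70.5, 78.3 and 89.2 TPM in siControl and 70.5, 63.6 and 68.7 TPM in siNCOA4. The means were 79.3 ± 9.39 and 67.6 ± 3.56 TPM (SD, n = 3 each), or 85.2% of control, with a log2 fold change of -0.22 (SE 0.088). The siNCOA4 values reached the level of siControl 1 and stayed below the other two siControl libraries. Without siControl 1 the log2 fold change of Dusp4 was -0.30, and without siControl 3 it was -0.14.

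Dusp6, the cytoplasmic phosphatase specific for ERK, was the most abundant of the phosphatases (chr10:99263231-99267489, plus strand, 3 exons). Its values were 213, 223 and 234 TPM in siControl and 213, 215 and 210 TPM in siNCOA4, or 95.1% of control (means 223 ± 10.2 and 213 ± 2.52 TPM, log2 fold change -0.07, SE 0.043). Here too siControl 1 lay within the range of the siNCOA4 libraries, and the other siControl libraries lay above it. The log2 fold change of Dusp6 was -0.10 without siControl replicate 1 and -0.038 without siControl replicate 3. Each library held between 3667 and 4236 reads on Dusp6.

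Dusp5, the nuclear counterpart that binds ERK and holds it in the nucleus, gave 33.5, 32.1 and 30.1 TPM in siControl and 32.6, 36.8 and 33.0 TPM in siNCOA4 (chr19:53529109-53542431, plus strand, 4 exons). The siNCOA4 mean was 107% of control (34.1 ± 2.32 against 31.9 ± 1.72 TPM, log2 fold change 0.10, SE 0.067). The ranges overlapped, and siNCOA4 2 was the highest library. The log2 fold change of Dusp5 was 0.041 without siNCOA4 replicate 2, 0.055 without siControl replicate 3 and 0.13 without siControl replicate 1. RefSeq promoter windows of 300 bases (250 before and 50 after the RefSeq start site, GRCm38.p6) matched 6 of the 9 members, in 7 windows, and both strands were searched. The RefSeq start sites can differ from the GENCODE gene starts printed here, as for Dusp5, whose window was chr19:53528895-53529194. The promoters of Dusp4, Egr1 and Phlda1 were not examined. Dusp5 is shown at the level of sequence because, of the 6 members searched, it alone held a CArG box, the motif bound by serum response factor. A pair of CArG boxes, in capitals, lies at -82 to -73 and -72 to -63 from the RefSeq start site of Dusp5 (GRCm38.p6, chr19:53529058-53529087, plus strand):
Dusp5: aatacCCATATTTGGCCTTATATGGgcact
A CArG box was found in 535 of all 32851 windows (1.63%) and in 1.16% of the 11566 windows of tested genes, and 6 of all windows (0.0183%) held at least 2. The letters CCGGAA, a core of ETS binding sites, were in the window of 1 member, Spry2, at +34, in 14.9% of all windows and in 28.7% of those of tested genes. The letters TGANTCA of AP-1, TGACGTCA of the cyclic AMP response element and TATAAA were in 0 of the 7 member windows. They were in 7.81%, 1.79% and 13.6% of all windows and in 5.08%, 3.19% and 6.93% of those of tested genes. These are matches of letters, and factor binding was not measured.

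The inhibitors upstream of RAF were lower on average with NCOA4 siRNA. Spry2, a Sprouty protein that blocks the passage of receptor signals to RAS and RAF, was at 45.4, 46.1 and 44.9 TPM in siControl and 42.1, 40.0 and 40.9 TPM in siNCOA4 (chr14:105891947-105896819, minus strand, 2 exons). The groups did not overlap, and the difference was small at 90.1% of control (means 45.5 ± 0.579 and 41.0 ± 1.03 TPM, log2 fold change -0.15, SE 0.041). Spry2 had between 455 and 583 reads per library.

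Spred1, which brings the RAS inactivator neurofibromin to the membrane, was at 119, 152 and 135 TPM in siControl and 126, 118 and 118 TPM in siNCOA4 (chr2:117121374-117182279, plus strand, 7 exons). The groups overlapped through siControl 1, which was close to the lowest siNCOA4 libraries, and siControl 2 was the highest (means 135 ± 16.9 and 121 ± 4.51 TPM, 89.2% of control, log2 fold change -0.16, SE 0.089). Spred1 was the member that varied most beyond counting noise, with a chi-square per degree of freedom of 83.8 among the siControl libraries, where counting alone gives about 1. Its log2 fold change was -0.25 without siControl 1 and -0.07 without siControl 2.

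Of the output genes, Etv5 and Egr1 hardly differed between the groups. Etv5 encodes a PEA3-family ETS factor that ERK signalling induces and activates (chr16:22381309-22439719, minus strand, 13 exons). It was at 109, 119 and 111 TPM in siControl and 113, 114 and 116 TPM in siNCOA4, or 101% of control (means 113 ± 5.29 and 114 ± 1.19 TPM, log2 fold change 0.02, SE 0.044). All siNCOA4 libraries lay inside the siControl range. With 1 replicate left out, the log2 fold change of Etv5 lay between -0.01 and 0.05, and it was below 0 only without siControl replicate 1.

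Egr1, the zinc-finger factor that serves as the textbook immediate-early gene, was at 14.1, 13.7 and 15.7 TPM in siControl and 15.7, 14.2 and 15.0 TPM in siNCOA4 (chr18:34859823-34864984, plus strand, 2 exons). The siNCOA4 mean was 103% of control (15.0 ± 0.770 against 14.5 ± 1.03 TPM, log2 fold change 0.05, SE 0.073), and the ranges overlapped. With 1 replicate left out, the log2 fold change of Egr1 lay between 0.013, without siControl replicate 2, and 0.10, without siControl replicate 3. The sign of the small differences of Etv5 and Egr1 depended on the settings. It kept its direction in 14 of 17 alternatives for Etv5 and in 15 of 17 for Egr1. The low-value filters, the fit without a variance trend and the replicate block are among the 17. These cannot change a fold change, so their agreement was fixed in advance. The ranges were -0.04 to 0.05 and -0.01 to 0.10.

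Ier3 and Phlda1 were lower in every siNCOA4 library than in any siControl library. Ier3 lies at chr17:35821684-35822923 (plus strand, 2 exons). It was at 493, 521 and 546 TPM in siControl and 454, 431 and 459 TPM in siNCOA4, or 86.2% of control (means 520 ± 26.8 and 448 ± 14.9 TPM, log2 fold change -0.21, SE 0.050). Its range over all alternatives was -0.27 to -0.17.

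Phlda1 encodes a small protein with a pleckstrin-homology-like domain, and its transcript is widely used as a readout of ERK output (chr10:111506286-111508645, plus strand, 2 exons). It had the widest relative gap of the members, at 7.58, 8.08 and 8.44 TPM in siControl and 4.61, 4.91 and 4.96 TPM in siNCOA4. The means were 8.03 ± 0.430 and 4.83 ± 0.191 TPM, or 60.1% of control, with a log2 fold change of -0.68 (SE 0.081) and a range of -0.75 to -0.63 over the alternatives. The reads behind these values were few, at 96, 108 and 97 in siControl and 59, 59 and 66 in siNCOA4. The replicates of Phlda1 differed by no more than counting noise, with a chi-square per degree of freedom of 0.280 and 0.097.

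**Figure D2:**
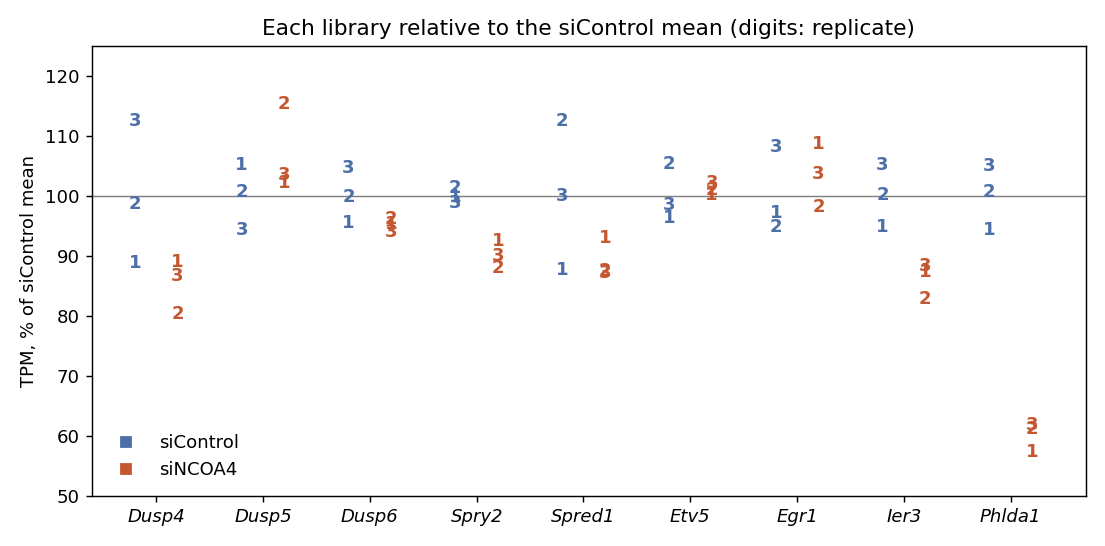
TPM of each member in each library as a percent of the siControl mean of that gene, with the digits marking the replicate number. The siNCOA4 points of Phlda1 sit near 60.1%, those of Ier3 and Spry2 lie below all siControl points, and siControl 1 lies among the siNCOA4 points for Dusp4, Dusp6 and Spred1.

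Over the members, 6 had a log2 fold change below 0 and 3 above it, with a median of -0.15, where the median of all tested genes was 0.03. All but Phlda1, 8 of the 9, differed by less than 0.25 on the log2 scale. In 3 members every siNCOA4 library lay below every siControl library, and in 0 members every siNCOA4 library lay above. Among all tested genes, 11.8% were arranged in the first way and 16.6% in the second. Since the members were selected on this contrast, nothing is read from their counts. The summed TPM of the 9 genes was 1105, 1194 and 1215 in siControl and 1072, 1038 and 1065 in siNCOA4. Without Ier3, which makes up the largest share, the sums were 612, 673 and 669 against 618, 607 and 606 TPM, and the groups then overlapped through siControl 1. In bulk RNA, fewer cells that express a gene and less RNA per cell cannot be told apart.

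A feature of the transcript sequence was examined next. The members were chosen by name as ERK-induced genes, and whether that choice favours this feature was not tested. AU-rich elements in the 3′ untranslated region, built around the letters ATTTA, mark many short-lived transcripts. In the longest coding transcript of each gene, ATTTA was present in 9 of 9 members and in 68.8% of 10767 tested genes with such a region. Its density was a median of 2.31 copies per kb in the members and 1.29 in all these genes, and 7 of 9 members lay above the latter. Ier3 had the highest density of the members, at 8.16 copies per kb, and Phlda1 followed at 4.90. Phlda1 was also the only member with the nonamer TTATTTATT, which 7.92% of genes carried. The regions were not matched for length, and decay rates were not measured.

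Other genes of the pathway were placed in 6 lists by role, and these genes, unlike the members, were tested. Of all 13829 tested genes, 750 (5.42%) passed the test, defined as an adjusted p under 0.05 by limma with Benjamini-Hochberg adjustment. Of these, 430 (3.11%) were higher and 320 (2.31%) lower with NCOA4 siRNA, and with each library centred on its median the split was 348 higher and 622 lower. A fold change above 1.5 in addition was reached by 163 genes (1.18%). In the 6 lists together, 22 of 136 tested genes passed (16.2%), 5 higher and 17 lower, with a median log2 fold change of -0.05. In all 22 the groups did not overlap, which selection by this test favours, so it adds no support. Among all tested genes the groups did not overlap in 16.6% (siNCOA4 higher) and 11.8% (siNCOA4 lower). The lists were written with an earlier account of these data known, so their counts are not independent evidence.

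In limma, 0% of the other phosphatases and 4.76% of the other inhibitors passed, beside 5.42% of all tested genes. None of the 6 other MAP kinase phosphatases tested passed in limma or in limma-voom on rebuilt reads. An unadjusted p under 0.05 (limma) was reached by 1 of the 6 and by 2982 of all 13829 tested genes. Dusp7 had means of 76.1 and 72.8 TPM, and Dusp2 of 17.0 and 20.4 TPM, with adjusted p of 0.477 and 0.185 (limma). Among 21 other feedback inhibitors and brakes on RAS, 1 passed: Inpp5d, the lipid phosphatase SHIP1, rose from 107 to 122 TPM (log2 fold change 0.20, SE 0.0415, adjusted p = 0.0434, limma). The count for this list was 6 with limma-voom, 3 with a minimum mean of 5 TPM, 2 with median centring and without siControl replicate 2, and 0 with no filter on low TPM or without a variance trend. Limma-voom called more genes in general, at 1396 of 13609. The call of Inpp5d was lost in 8 of 16 alternatives, among them without siControl replicate 3 and without any 1 of the siNCOA4 replicates. The abundant inhibitors Ptpn6, a tyrosine phosphatase, and Pebp1, which binds RAF, had means of 520 and 539 TPM and of 387 and 379 TPM. Spred2, Spry4 and Spred3, relatives of the members Spry2 and Spred1, are named here after their values were seen. They had log2 fold changes of -0.31, -0.23 and -0.20, with adjusted p of 0.0504, 0.150 and 0.313 (limma).

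Upstream of the cascade, 5 of 16 tested receptors and ligands passed, 2 higher and 3 lower. Pdgfb, a platelet-derived growth factor chain, fell from 21.1 ± 1.22 to 12.9 ± 0.776 TPM (log2 fold change -0.69, SE 0.0698, adjusted p = 0.00466, limma). The receptor tyrosine kinases Mertk, which serves the uptake of dying cells, and Csf1r rose from 28.0 to 39.2 and from 341 to 422 TPM (adjusted p = 0.00965 and 0.0218, limma). The growth factor Igf1 fell from 40.5 to 30.2 TPM, and Csf2rb, the shared chain of the GM-CSF receptor, fell from 33.4 to 28.1 TPM (adjusted p = 0.0214 and 0.0470, limma). Within the cascade, 2 of 30 kinases, adaptors and scaffolds passed. Rasgrp3, an exchange factor that loads RAS, fell from 73.6 ± 2.36 to 53.7 ± 1.46 TPM (log2 fold change -0.45, SE 0.0436, adjusted p = 0.00418, limma). Grb2, the adaptor between receptors and the exchange factor SOS, fell from 133 to 112 TPM (adjusted p = 0.0248, limma). Among 18 effector kinases and ternary-complex factors, 1 passed, the ETS factor Ets2, which fell from 105 to 90.1 TPM (adjusted p = 0.0348, limma). The kinase Rps6ka1 and the factor Srf had adjusted p of 0.139 and 0.310. The count for the cascade was 7 with limma-voom, 5 with a minimum mean of 5 TPM and 4 with median centring or quantile normalization. That for the effector list was 3 with limma-voom and with median centring, 2 with quantile normalization and 0 without a variance trend, and that for receptors and ligands was 2 without a variance trend. Without any 1 of the siNCOA4 replicates, the count for receptors and ligands was 1 and that for the cascade was 1. Without siControl replicate 2 these counts were 3 and 1, and without siControl replicate 1 the cascade count was 4. Ets2 kept its call in 9 of 16 alternatives, and of the fits that left out a replicate only in the one without siControl replicate 1. Csf2rb kept its call in 6 of 16 alternatives and in 0 of the fits that left out a replicate. The call held in 12 of 16 alternatives for Mertk, 11 for Igf1, 11 for Csf1r and 10 for Grb2, and in all 16 for Pdgfb and Rasgrp3.

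**Figure D3:**
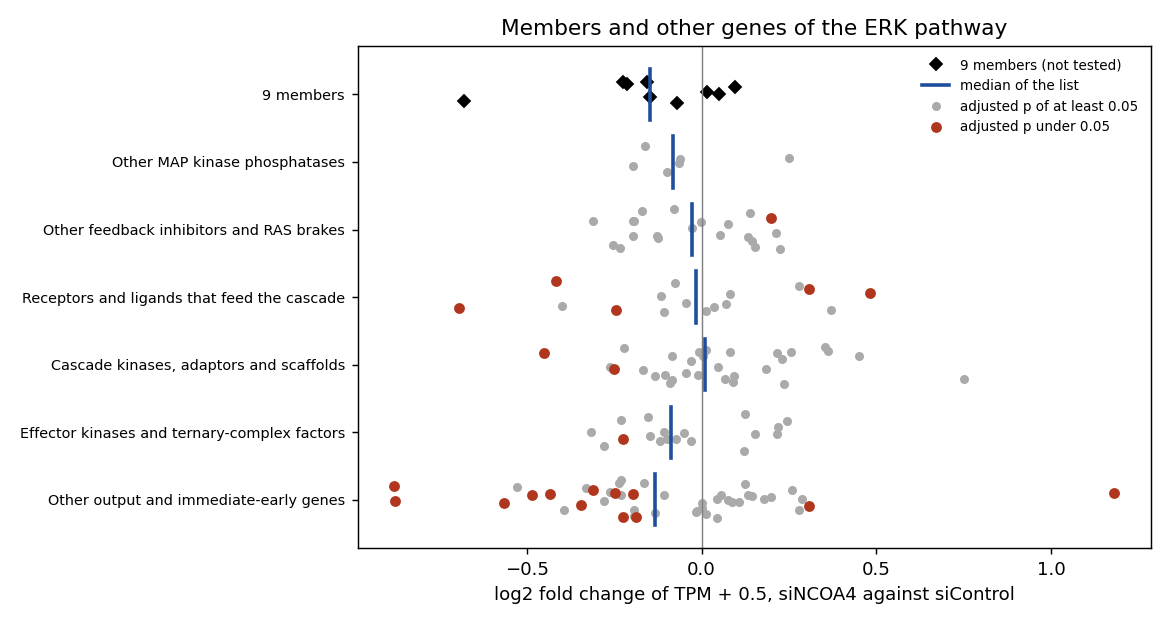
Log2 fold change of TPM + 0.5, siNCOA4 against siControl, for the 9 members and for each tested gene of the 6 pathway lists, with lines at the list medians. Red points passed at an adjusted p under 0.05, black diamonds are members and were not tested, and the red points of the output list lie mostly to the left of 0, with Btg2 at 1.18 as the exception farthest right.

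The other output and immediate-early genes held most of the calls, with 13 of 45 tested genes past the test (28.9%), 11 lower and 2 higher. The median log2 fold change of the list was -0.13. Rgs1, which restrains G-protein signals, was at 10.0, 11.1 and 11.2 TPM in siControl and 5.60, 5.55 and 5.68 TPM in siNCOA4 (log2 fold change -0.88, SE 0.0736, adjusted p = 0.00234, limma). The AP-1 subunit Fosl1 was at 60.6, 43.8 and 48.9 TPM against 27.4, 28.3 and 26.4 TPM (log2 fold change -0.88, SE 0.112, adjusted p = 0.00969, limma). Its partner Jun fell from 123 ± 5.63 to 87.5 ± 2.99 TPM (log2 fold change -0.49, adjusted p = 0.00466, limma). Etv4, the PEA3-family relative of Etv5, was at 31.6, 32.7 and 33.4 TPM in siControl and at 23.8, 24.3 and 23.9 TPM in siNCOA4 (log2 fold change -0.43, SE 0.0448, adjusted p = 0.00510, limma). Plau, the urokinase plasminogen activator, fell from 699 ± 68.0 to 472 ± 14.1 TPM (log2 fold change -0.56, adjusted p = 0.0102, limma).

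Against this direction, Btg2, an antiproliferative gene, rose from 5.30 ± 0.692 to 12.6 ± 0.715 TPM (log2 fold change 1.18, SE 0.104, adjusted p = 0.00284, limma). The other calls of the output list were closer to the threshold and are named after their values were seen: Ccnd1, Plaur, Atf3, Bhlhe40, Pim1 and Klf6 fell, with log2 fold changes between -0.35 and -0.19, and Bcl2l11 rose by 0.31. Among the best-known immediate-early genes, Fos was at 45.6 and 51.7 TPM and Myc at 177 and 154 TPM, with adjusted p of 0.0853 and 0.231 (limma). Of the 22 pathway genes past the test, Rgs1, Btg2, Jun, Etv4, Pdgfb and Rasgrp3 passed in all 16 alternatives, and the other 16 were lost in at least 1. Fosl1 was lost without siNCOA4 replicate 1 or 3 and Plau without any 1 of the siNCOA4 replicates. The count for the output list was 4, 5 and 4 without siNCOA4 replicate 1, 2 and 3, and 6 without siControl replicate 3. It was 7 with no filter on low TPM and 7 without a variance trend, and 17 with limma-voom.

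**Figure D4:**
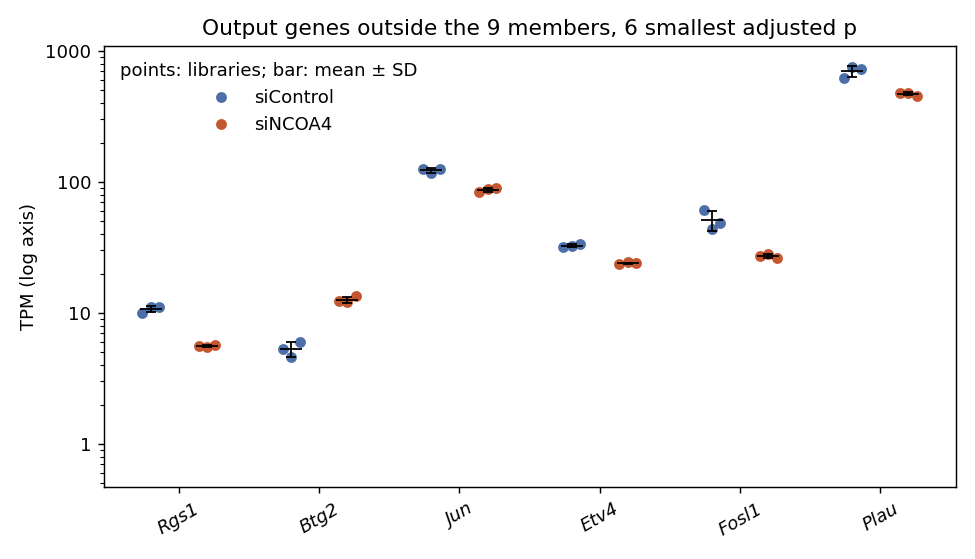
TPM on a log axis of the 6 genes with the smallest adjusted p in the list of other output and immediate-early genes, with 1 point per library and bars for the mean and SD of 3 libraries. The siNCOA4 points lie below all siControl points for Rgs1, Jun, Etv4, Fosl1 and Plau, and above them for Btg2.

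Markers of the macrophage state also differed between the groups, and 1 of them, Csf1r, is in the list of receptors and ligands too. Of 13 macrophage markers, 6 passed the test (limma), with Aif1, Fcgr1, Fcgr3, Csf1r and Adgre1 higher and Cd14 lower. Every siNCOA4 library lay above every siControl library for 9 of the 13 markers and below for 2, Cd14 and Cd68. Cd68, which did not pass, was at 1709 to 2060 TPM in siControl and 1507 to 1612 TPM in siNCOA4. The summed level of all 13 markers was 10027 to 10306 TPM in siControl and 10628 to 10760 TPM in siNCOA4. Lyz2, not among the 6 that passed, was the largest part, with a mean of 5147 TPM over the libraries. The 27 markers of other cell types summed to 20.6 to 26.7 and 17.6 to 22.3 TPM, most of it S100a8 at 22.6 and 18.1 TPM. The part of these shifts in the values of the members and of the pathway genes was not tested.

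Across the 6 libraries the members had a mean profile, in z scores of log2(TPM + 0.5), of -0.185, 0.634 and 0.685 in siControl and -0.256, -0.483 and -0.396 in siNCOA4. The value of siControl 1 was closer to the siNCOA4 libraries than to its own group. The genes closest to this profile among 10026 candidates were Ercc2, Alkbh5, Afg3l2, Ldha and Ptma, with a Pearson r between 0.993 and 0.999. Those most opposed were Gbf1, Epsti1, Surf1, Zfp36l1 and Lima1, with r between -0.985 and -0.979. These correlations are over 6 libraries that share the same groups and library differences, and the genes were picked as the extremes.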

How the data were processed

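RNA from J774 cells was made into stranded poly(A) libraries, 3 with control siRNA and 3 with NCOA4 siRNA. The authors deposited TPM per gene and library. The submitters' processing notes name Trimmomatic (version 0.33), FastQC, HISAT2 (version 2.1.0), featureCounts and edgeR, with build mm10. The annotation release was not given in the sources used here. Symbols and positions were taken from GENCODE M21 (GRCm38), in which 260 of the 55487 identifiers had no name. TPM is relative to each library, so a shift in abundant transcripts moves all others.

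Testing used limma 3.58.1 (R 4.3.3) for genes whose mean TPM reached 0.5, on log2(TPM + 0.5) with lmFit, eBayes with a trend, and Benjamini-Hochberg adjustment over 13829 genes. Fold changes are on this scale and understate those of low genes. Past the test means an adjusted p under 0.05, and a stricter call adds a fold change above 1.5. The study applied cuts of this size to edgeR output, not to limma on log2 TPM. Percent of control is a ratio of mean TPM. Rebuilt whole reads came from TPM and gene length, and 20770 of 21055 genes (98.6%) were whole within 0.02 reads. They gave the depth, the chi-square between replicates and a limma-voom alternative. The precision in limma-voom is estimated from the spread between libraries, and the counting noise of the members covers counting error only. Only the main fit, and none of the alternatives, was also run on simulated reads. These had the same dispersion for every gene and no deviating library, unlike the data here, so nothing is read from that run.

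The members and lists were chosen with earlier results of these data known. All members were named, and from each list up to 6 genes past the test with the smallest adjusted p, plus, where fewer than 2 passed, the 2 of highest mean TPM. The genes most like the members were the 5 highest and 5 lowest Pearson r among genes whose mean TPM reached 5. The labels do not say whether libraries with the same replicate number were paired. The correlations of same-numbered deviations were 0.0283, -0.0185 and 0.0229, and with 3 libraries per group these cannot decide it. The main fit treated the libraries as unpaired. The labels call the replicates biological, and p-values measure the spread between these libraries. Alternatives were other pseudocounts, low-value filters, scalings, variance models, tests, a replicate block and each replicate left out.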

Additional observations from a re-analysis of the deposited data

How the results depend on the processing

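The number of genes past the test, 750, was 499 with no filter on low TPM, 404 with eBayes without a trend and 1396 with limma-voom on rebuilt reads, and leaving out 1 replicate at a time gave 174 to 841. With a fold change above 1.5 the count was 163, and leaving out replicates gave 93 to 173. The pathway lists together, with 22 past the test, gave 14 with no filter, 12 without a trend, 38 with limma-voom, and 6 to 21 with 1 replicate left out. The lowest, 6, came without siNCOA4 replicate 1 and without siNCOA4 replicate 3. Under the replicate block the 3 counts were 161, 87 and 9. The share of higher genes among those past the test was 57.3%, against 35.9% after median centring.

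The members' log2 fold changes moved by more than the spread of replicates in few cases. Under median centring they were -0.13 for Dusp6, -0.21 for Spry2 and -0.041 for Etv5. For Phlda1 the value was -0.75 both under quantile normalization and with limma-voom. Phlda1 rests on 59 to 108 reads per library, and the other members on more.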
